A study of Rattus norvegicus with 14 samples.

Results

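The transcripts described here are those of 5 rat liver genes known to follow the pattern of growth hormone release. They are the cytochrome P450 genes Cyp2a1, Cyp2a2, Cyp2c12 and Cyp3a18, and Car3, which encodes carbonic anhydrase III. They were taken as every probe set, a group of short probes for 1 transcript, whose platform annotation names one of these genes. The 5 are among 3018 gene symbols on the array, and the rule gave 7 of the 4502 probe sets in the deposited table: 6 that name a single member and 1 that names both Cyp2a1 and Cyp2a2. Signals came from 1-colour Affymetrix arrays of liver RNA from 14 samples of rats of a strain labelled Kyoto and of Wistar rats. Kyoto rats had eaten chow with 1% orotic acid for 1, 3 or 14 days (2 arrays each). Wistar rats were controls on chow without it (3 arrays), or had eaten it for 3 days (2 arrays) or 14 days (3 arrays). Orotic acid is a precursor of the pyrimidine nucleotides, and rats that eat it develop a fatty liver that reverses when feeding stops. The RNA came from the left lateral lobe. The labels give neither sex nor age, and Kyoto rats without orotic acid and Wistar rats at day 1 were not analysed here.

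In adult rats the pituitary of males releases growth hormone in pulses with low troughs, and that of females releases it more evenly. The liver reads this pattern through the growth hormone receptor, the kinase JAK2 and the transcription factor STAT5b, and many steroid and drug metabolising genes follow it. From studies of rat liver, Cyp2a2, Cyp3a18 and Car3 are known as male-predominant, Cyp2c12 as female-specific and Cyp2a1 as female-predominant in adults. The P450 enzymes of these families hydroxylate steroids such as testosterone, and carbonic anhydrases interconvert carbon dioxide and bicarbonate.

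RefSeq (assembly GRCr8) places Cyp2a1 at chr1:91359278-91372554, Cyp2a2 at chr1:91391492-91417158, Cyp2c12 at chr1:248619887-248681945, Cyp3a18 at chr12:13994312-14044185 and Car3 at chr2:88491666-88501299. The RefSeq promoter table matched 3 of the 5 members, and Cyp2a2 and Car3 are named only. The 250 bases before the transcript start used in that table are shown because regulators of these genes are known to bind there. They lie at chr1:91359028-91359277 on the plus strand for Cyp2a1, at chr1:248677035-248677284 on the minus strand for Cyp2c12 and at chr12:13994062-13994311 on the plus strand for Cyp3a18. The Cyp2c12 stretch lies inside the gene bounds given above, so it precedes the start of a transcript that begins downstream of the gene's outermost start. Capitals mark the motif matches described after the sequences.
Cyp2a1: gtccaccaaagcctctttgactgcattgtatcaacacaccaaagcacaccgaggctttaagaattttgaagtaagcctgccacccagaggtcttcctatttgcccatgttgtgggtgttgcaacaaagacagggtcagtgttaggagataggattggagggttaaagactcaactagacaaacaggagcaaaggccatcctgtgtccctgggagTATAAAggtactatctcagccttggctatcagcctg
Cyp2c12: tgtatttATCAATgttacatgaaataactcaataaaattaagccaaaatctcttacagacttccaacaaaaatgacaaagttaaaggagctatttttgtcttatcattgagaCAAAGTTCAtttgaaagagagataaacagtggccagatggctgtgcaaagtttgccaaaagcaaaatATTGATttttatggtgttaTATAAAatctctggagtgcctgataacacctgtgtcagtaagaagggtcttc
Cyp3a18: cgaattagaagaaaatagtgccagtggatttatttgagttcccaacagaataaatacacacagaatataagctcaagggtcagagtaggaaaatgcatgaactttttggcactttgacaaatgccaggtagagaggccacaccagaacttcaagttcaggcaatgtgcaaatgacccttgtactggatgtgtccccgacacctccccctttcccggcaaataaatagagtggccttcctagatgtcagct
Both strands were searched for the letters TTCNNNGAA (bound by STAT5), ATTGAT (bound by HNF6, the product of Onecut1), TGNACTTTG (bound by HNF4) and TATAAA (the TATA box). No 2 matches overlapped. Positions count back from that start, with -1 the last base before it. The Cyp2c12 stretch held ATTGAT at -71 to -66 and, on the other strand, at -243 to -238, and 7.1% of 33469 promoter stretches of this length hold these letters. It also held the HNF4 letters on the other strand at -138 to -130, found in 1.06% of promoters, and TATAAA at -52 to -47, found in 12.9%. The Cyp2a1 stretch held TATAAA at -36 to -31 and no other searched motif, and the Cyp3a18 stretch held none of the 4. The STAT5 letters, present in 7.67% of promoters, were in none of the 3 stretches. A match is a run of letters and was not tested as a binding site.

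Signals are intensities on a linear scale. For tests, log2 signals were quantile normalized, and values under the 25th percentile, a signal of 115 (log2 6.85), were set to that floor and counted as background. All 5 genes passed the filter that kept the upper 60% of 3181 features, but Cyp2c12 ranked 1884 with 1909 kept. Its highest arrays were those of Kyoto day 14, which raised the mean that the filter used. The labels do not state that each array was a separate animal, so p-values measure the spread between these samples. In whole liver, fewer cells of a type and less RNA per cell cannot be told apart. All 8 hepatocyte markers were above the floor on all 14 arrays, and their summed signal ran from 84982 to 199659. Of the arrays, Wistar control 2 stood apart from its label, with its highest correlation to Kyoto day 3 replicate 2 (r = 0.960 over 1909 features). Its signals of Ces2e, a carboxylesterase, and Mst1, a hepatocyte growth factor-like protein, were 51.0 and 156, within the Kyoto ranges of 34.8 to 97.8 and 23.8 to 282. On the other controls Ces2e was 1164 to 1807 and Mst1 was 2285 to 2417. The median correlation of an array with the rest was lowest for Kyoto day 1 replicate 1 (r = 0.895). The labels give lot batch 1 for 11 arrays, all 6 Kyoto arrays among them, and none for Wistar control 3, Wistar day 3 replicate 2 and Wistar day 14 replicate 3.

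Among rats fed orotic acid, Cyp2a2 and Car3 were lower in Kyoto than in Wistar livers, by 2.88-fold and 2.15-fold. In Kyoto livers, Cyp2a1 was 3.58-fold higher at day 14 than at day 1. These were the calls at an adjusted p under 0.05 among the 5 genes in 8 comparisons. Between strains in fed rats 2 of 5 genes were called, both lower, where 3.25% of the 1909 features were called and 1.99% were called lower. Between days 14 and 1 in Kyoto rats 1 of 5 genes was called, where 0.0524% of features, Cyp2a1 alone, was called. Cyp3a18 and Cyp2c12 were called in none of the 8 comparisons, and each had an array at the floor in Kyoto day 1.

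**Figure D1:**
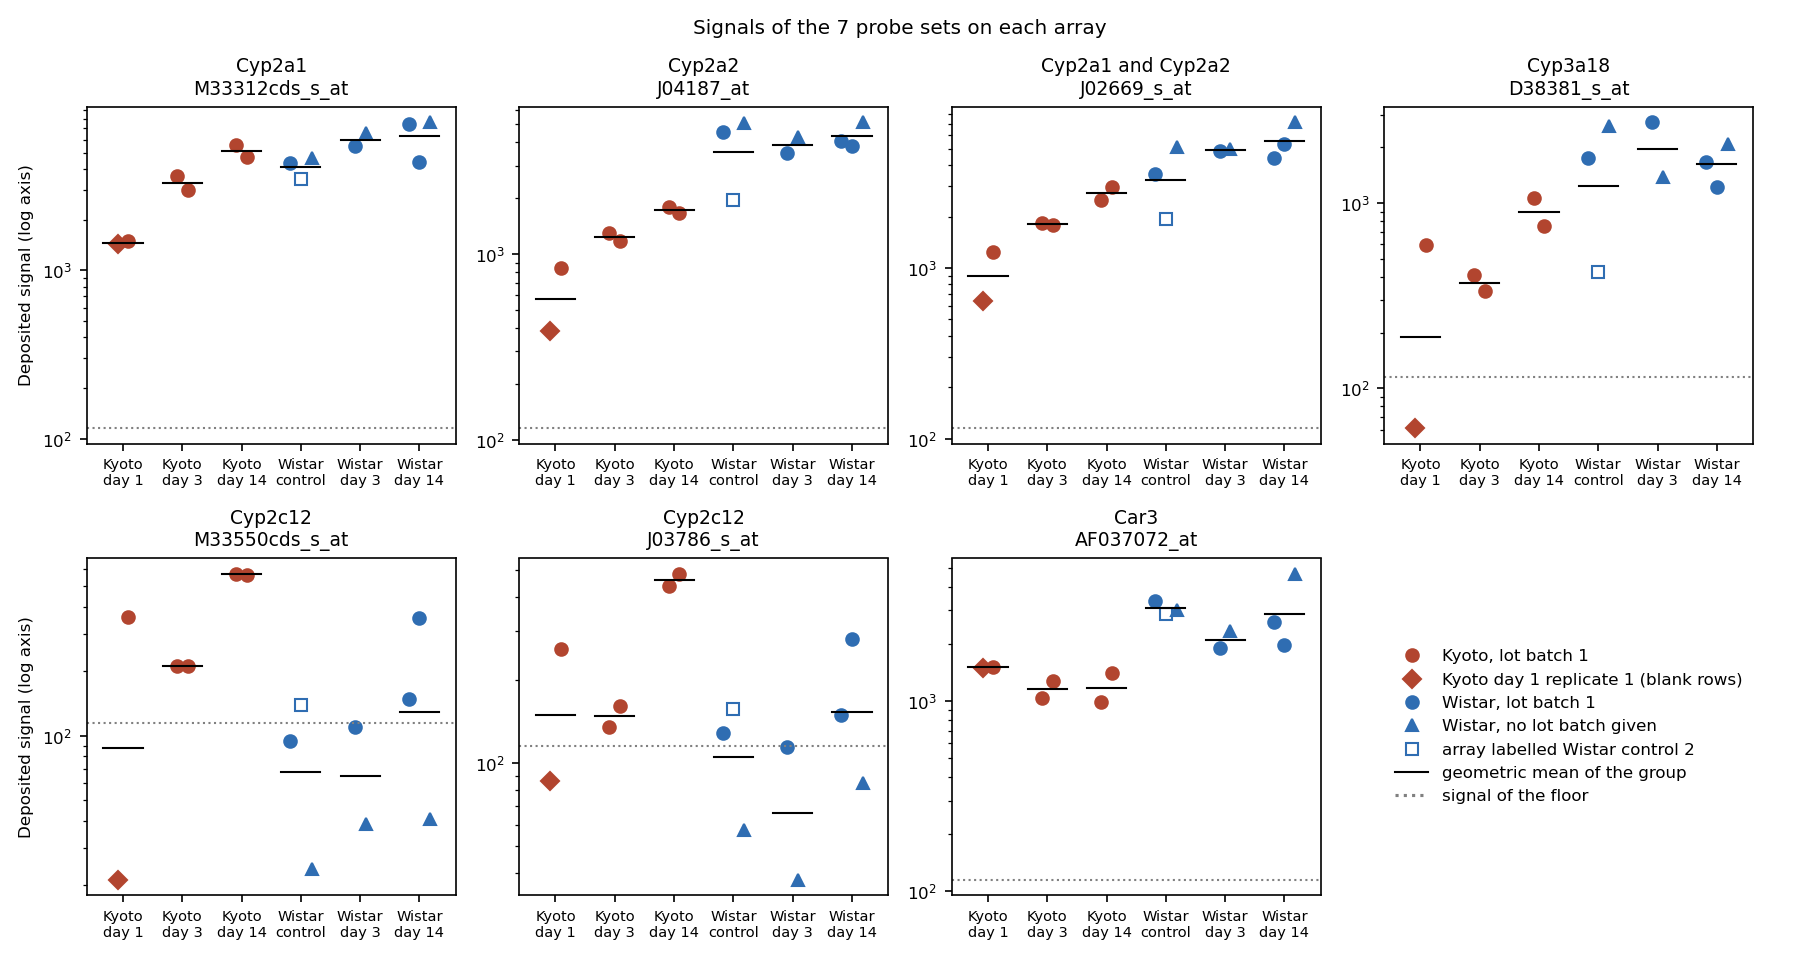
Deposited signal (log axis) of the 7 probe sets on each of the 14 arrays, by strain and day of orotic acid feeding, in red for Kyoto and blue for Wistar. Black lines are geometric means, the dotted line is the floor signal, the diamond is Kyoto day 1 replicate 1, triangles are Wistar arrays without a lot batch and the open square is Wistar control 2. The 4 Kyoto arrays at days 3 and 14 lie below the 5 fed Wistar arrays for Cyp2a2, the shared Cyp2a1 and Cyp2a2 probe set, Cyp3a18 and Car3.

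Cyp2a1 encodes a testosterone hydroxylase. Its signals in Kyoto livers were 1427 and 1499.95 at day 1, 3649 and 3019 at day 3, and 5591 and 4695 at day 14. In Wistar livers they were 4360.3, 3481 and 4662 in controls, 5476 and 6543 at day 3, and 7370.25, 4414 and 7595 at day 14. The 3 Kyoto groups did not overlap one another and stood in the order of days, and both fed Wistar groups lay above the Wistar controls, apart from day 14 replicate 2 on the deposited scale, which was within the range of the controls. On the normalized scale the fed Wistar groups did not overlap the controls. In order of mean log2 signal, Wistar day 3 (12.65), Wistar day 14 (12.55) and Kyoto day 14 (12.43) came first, with overlap between neighbours. Wistar controls (11.86) did not overlap Kyoto day 14, and overlapped Kyoto day 3 (11.65) only through control 2 (11.58). Kyoto day 1 (10.59) overlapped no group.

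Cyp2a1 rose in Kyoto livers to 5143 ± 634 at day 14, against 1464 ± 51.3 at day 1 (SD, n = 2 each). The log2 difference was 1.84 ± 0.25 (SE; 95% interval 1.30 to 2.39; limma adjusted p = 0.00874). The call was lost without Kyoto day 1 replicate 1 (adjusted p = 0.0604), Kyoto day 14 replicate 1 (0.185) or Kyoto day 14 replicate 2 (0.0881), with differences of 1.73 to 1.96 over all 14 arrays left out. It was also lost with only the groups compared (adjusted p = 0.399), array weights (0.0886), lot batch 1 arrays alone (0.0759) or only arrays with no blank rows (0.136). Kyoto day 3 against day 1 gave 1.06 ± 0.25 (adjusted p = 0.782), and Kyoto day 14 against day 3 gave 0.78 ± 0.25 (adjusted p = 0.834). In Wistar livers the differences from controls were 0.79 ± 0.23 at day 3 (adjusted p = 0.248) and 0.69 ± 0.21 at day 14 (adjusted p = 0.639). Fed Kyoto minus fed Wistar livers gave -0.56 ± 0.17 (adjusted p = 0.0991), with Kyoto day 14 inside the Wistar range. The change between days 3 and 14 was larger in Kyoto than in Wistar by 0.88 ± 0.34, which did not pass the test (adjusted p = 0.857).

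Cyp2a2, the close paralog of Cyp2a1, encodes an enzyme that hydroxylates testosterone at other positions. Kyoto livers had signals of 386 and 844 at day 1, 1305 and 1172 at day 3, and 1792 and 1657 at day 14. Wistar livers had 4565, 1956 and 5090.03 in controls, 3499 and 4254 at day 3, and 4093, 3836 and 5137 at day 14. Every Kyoto array lay below every Wistar array, and the lowest Wistar array was control 2. By mean log2 signal the 3 Wistar groups (12.08 at day 3, 12.01 at day 14 and 11.67 in controls) overlapped one another in that order, and Kyoto day 14 (10.76), day 3 (10.26) and day 1 (9.21) each stood apart from the next.

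In fed rats, Cyp2a2 averaged 10.51 on the log2 scale in Kyoto livers (n = 4), against 12.04 in Wistar livers (n = 5). The difference of -1.53 ± 0.29 (SE; 95% interval -2.15 to -0.91) passed the limma test (adjusted p = 0.0127). With lot batch 1 arrays alone it was -1.41 (adjusted p = 0.104), and with the lot batch as a block -1.34 (adjusted p = 0.0540). The call was also lost without Kyoto day 14 replicate 1 (adjusted p = 0.0678), Kyoto day 14 replicate 2 (0.0500019) or Wistar day 3 replicate 2 (0.0636), and with no filter on low signals (0.0771). Kyoto day 14 minus day 1 gave 1.55 ± 0.43 (adjusted p = 0.208). Without Kyoto day 1 replicate 2 this difference was 2.18 (adjusted p = 0.00942) and without Kyoto day 1 replicate 1 it was 0.93. In Wistar livers, day 14 minus control gave 0.34 ± 0.35, and -0.08 without Wistar control 2.

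The probe set that names both genes had signals of 644 and 1234 in Kyoto livers at day 1, 1842 and 1795 at day 3, and 2506 and 2984 at day 14. Its signals in Wistar livers were 3564, 1946 and 5119 in controls, 4824 and 4979.5 at day 3, and 4394, 5324.5 and 7126 at day 14. It was 2.36-fold lower in fed Kyoto than in fed Wistar livers (log2 difference -1.24 ± 0.28, limma adjusted p = 0.0275), a call lost without any 1 of 8 of the 14 arrays (highest adjusted p 0.126). With lot batch 1 arrays alone its difference was -1.14 (adjusted p = 0.145). Its change cannot be assigned to either gene, and probes of the other P450 sets may also take up transcripts of close paralogs, which was not tested because probe sequences were not used here.

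Whether the Cyp2a probe sets moved alike was compared within arrays, on the normalized values. The log2 ratio of Cyp2a2 to Cyp2a1 was lower in fed Kyoto (SD 0.19, n = 4) than in fed Wistar livers (SD 0.25, n = 5) by 0.97 on the log2 scale. An exact two-sided permutation test gave p = 0.00794, the smallest that 126 splits allow, or 0.0238 adjusted over 3 pairs of probe sets. Relative to Cyp2a1, the shared probe set was also lower in Kyoto (difference -0.69, exact permutation p = 0.0317, adjusted 0.0476). Relative to Cyp2a2, the shared probe set was higher in Kyoto (difference 0.29, exact permutation p = 0.0476, adjusted 0.0476). The shared probe set thus differed between strains by an amount between those of the single-gene sets. Each of the 3 ratios follows from the others, so these are not separate tests, and the splits did not hold the day fixed. The Cyp2a2 to Cyp2a1 difference ran from -1.06 to -0.89 with any 1 array left out, and was -0.92 on the signals as the authors scaled them.

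Cyp3a18 encodes another steroid and drug hydroxylase. Kyoto livers gave signals of 61.0 and 592 at day 1, 407 and 336 at day 3, and 1066 and 748 at day 14. Wistar livers gave 1748, 424 and 2589 in controls, 2728 and 1389 at day 3, and 1668, 1225 and 2073 at day 14. The lowest array, Kyoto day 1 replicate 1, was at the floor, and Wistar control 2 lay among the Kyoto arrays. The mean log2 signals were 11.08 at Wistar day 3, 10.61 at Wistar day 14, 10.22 in Wistar controls, 9.80 at Kyoto day 14, 8.52 at Kyoto day 3 and 8.06 at Kyoto day 1. In that order Kyoto day 14 and day 3 were the only neighbours that did not overlap.

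The 4 fed Kyoto arrays at days 3 and 14 were all below the 5 fed Wistar arrays for Cyp3a18, but the difference of -1.69 ± 0.51 missed the threshold (95% interval -2.78 to -0.60; limma adjusted p = 0.0893). It passed without Wistar control 2 (adjusted p = 0.0305), Kyoto day 1 replicate 1 (0.0383) or Kyoto day 1 replicate 2 (0.0394), arrays of groups outside this comparison. Within lot batch 1 it was -1.82 (adjusted p = 0.181). Kyoto day 14 minus day 1 gave 1.74 ± 0.75 (adjusted p = 0.447), 2.96 without Kyoto day 1 replicate 2 (adjusted p = 0.0298) and 0.53 without Kyoto day 1 replicate 1. Cyp2a2, Cyp3a18 and Car3 were the 3 members whose fed Kyoto arrays all lay below the fed Wistar arrays, a separation that 3.77% of all features showed. These 3 are the male-predominant members. For the other male-predominant genes only counts and a median were taken, with no test of the list. Of 7 tested, 2 were higher and 5 lower in fed Kyoto livers, with a median of -0.02.

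Cyp2c12 encodes a hydroxylase of steroid sulfates in female rat liver. On the tested probe set, Kyoto livers had signals of 21.2 and 359 at day 1, 212 and 213 at day 3, and 572 and 567 at day 14. Wistar livers had 94.6, 139.7 and 23.8 in controls, 110.1 and 38.5 at day 3, and 149, 354 and 41.0 at day 14. The 2 Kyoto day 14 arrays were the highest of all 14, and 6 arrays were at the floor: Kyoto day 1 replicate 1, Wistar controls 1 and 3, both Wistar day 3 arrays and Wistar day 14 replicate 3. By mean log2 signal, Kyoto day 14 (9.16) stood apart, and Kyoto day 3 (7.73), Kyoto day 1 (7.68), Wistar day 14 (7.52), Wistar controls (6.95) and Wistar day 3 (6.85, the floor) each overlapped the next.

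The other Cyp2c12 probe set, which had the lower mean and was not tested, gave 86.5 and 258 in Kyoto livers at day 1, 136 and 161 at day 3, and 439 and 485 at day 14. In Wistar livers it gave 129, 157 and 57.4 in controls, 114 and 37.9 at day 3, and 150.1, 282 and 84.8 at day 14. It too was highest on the Kyoto day 14 arrays, and 5 arrays were at the floor. On both probe sets the 3 Wistar arrays without a lot batch were the lowest Wistar arrays, at 23.8 to 41.0 and 37.9 to 84.8, against 94.6 to 354 and 114 to 282 on the other 5. The part of the lot batch in the Wistar values was not tested beyond the block and the split given here.

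No Cyp2c12 difference passed the test, and those with arrays at the floor depend on it. Fed Kyoto minus fed Wistar livers gave 1.26 ± 0.34 (limma adjusted p = 0.0626), with 3 of 5 Wistar arrays at the floor, and 1.09 within lot batch 1 (adjusted p = 0.321). With any 1 array left out this difference ran from 1.09 to 1.27. The gene was kept by the filter at rank 1884 of 1909, with its highest arrays in Kyoto day 14. Its p-values that use Kyoto day 14 are therefore no support for a difference. Kyoto day 14 minus day 1 gave 1.48 ± 0.51 (adjusted p = 0.348), and 0.65 without Kyoto day 1 replicate 1, the array at the floor. Kyoto day 14 minus day 3, with no array at the floor, gave 1.43 ± 0.51 (adjusted p = 0.945). With a floor at the 10th percentile, or no floor and a pseudocount of 16, the gene was outside the upper 60% and was not tested.

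Car3 encodes a carbonic anhydrase abundant in skeletal muscle, fat and male rat liver. Kyoto livers had signals of 1497 and 1514 at day 1, 1043 and 1277 at day 3, and 988 and 1400.4 at day 14. Wistar livers had 3379.8, 2883 and 3005 in controls, 1899.8 and 2337 at day 3, and 2612, 1971 and 4674 at day 14. Every Kyoto array lay below every Wistar array, and Wistar control 2 was close to the other controls. The mean log2 signals were 11.45 in Wistar controls, 11.38 at Wistar day 14, 11.20 at Wistar day 3, 10.64 at Kyoto day 1, 10.20 at Kyoto day 14 and 10.17 at Kyoto day 3. The 3 Wistar groups overlapped, as did Kyoto days 14 and 3, and Kyoto day 1 stood apart on both sides.

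In fed rats, Car3 averaged 10.19 on the log2 scale in Kyoto livers (n = 4), against 11.29 in Wistar livers (n = 5), a difference of -1.10 ± 0.23 (SE; 95% interval -1.59 to -0.61; limma adjusted p = 0.0171). With lot batch 1 arrays alone it was -0.85 (adjusted p = 0.160), and with the lot batch as a block -0.91 (adjusted p = 0.0807). The call was lost without Kyoto day 3 replicate 1 (adjusted p = 0.110), Kyoto day 14 replicate 1 (0.112) or Wistar day 3 replicate 2 (0.0909), and with no filter on low signals (0.0748). Within strains no Car3 difference passed, among them Kyoto day 14 minus day 1 at -0.43 ± 0.34 (adjusted p = 0.687) and Wistar day 14 minus control at -0.07 ± 0.28 (adjusted p = 0.992).

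Because muscle and fat also hold Car3, their markers were read on the same arrays. Of 14 skeletal muscle markers 2 were on the array, Myl1 at the floor on 14 arrays and Myh1 on 12, and their summed signal was 84.4 to 201 over all groups. Of 8 fat markers 3 were on the array, with Lpl at the floor on 13 arrays, and their sum was 938 to 1316 in Kyoto livers at days 3 and 14, against 796 to 1467 in fed Wistar livers. Both sums overlapped between the strains. Markers of other liver cells were read too. The sum of 2 bile duct markers was 120 to 174 in Kyoto livers at days 3 and 14, against 123 to 159 in fed Wistar livers. That of 5 stellate cell and fibroblast markers was 5529 to 7631, against 5127 to 8757. Both of these overlapped, and 2 further lists had ranges that lay higher in fed Kyoto livers. The summed signal of 2 endothelial markers was 317 to 482 in fed Kyoto livers at days 3 and 14, against 205 to 275 in fed Wistar livers, without overlap, and one of the 2, Pecam1, was at the floor on 10 arrays. The sum of 4 Kupffer cell markers was 4438 to 6294 in the same Kyoto livers, against 3594 to 5085 in fed Wistar livers, with overlap. Their part in the lower Cyp2a2 and Car3 signals was not tested.

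**Figure D2:**
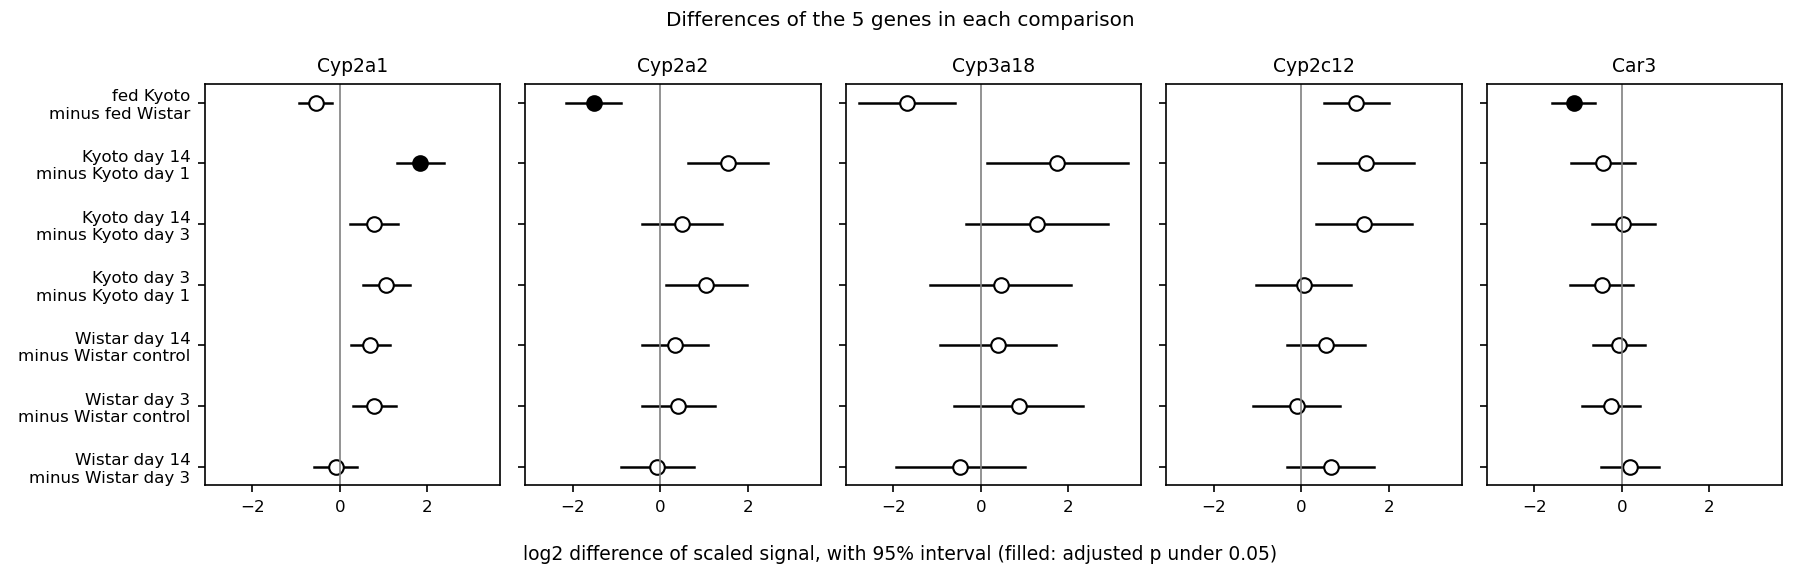
Log2 differences of the 5 genes in 7 comparisons, with 95% intervals from the limma fit. Filled points passed an adjusted p of 0.05: Cyp2a1 at Kyoto day 14 against day 1, and Cyp2a2 and Car3 in fed Kyoto against fed Wistar livers.

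Between days 14 and 1 in Kyoto livers 4 of 5 genes, the P450s, had day 14 arrays all above the day 1 arrays, as did 19.1% of all features, and Car3 had them all below, as did 18.9%. The median of the 5 differences was 1.55, against -0.00089 over all features. Between days 3 and 1 in Kyoto rats 0 of 5 genes passed limma's adjusted threshold (0% of features), and 2, Cyp2a1 and Cyp2a2, had an unadjusted p under 0.05 (5.87% of features). The same 2 genes had day 3 arrays all above the day 1 arrays (15.5% of features), and Car3 had them all below (12.5%). Between days 14 and 3 the count was also 0 of 5 (0% of features), with 2, Cyp2a1 and Cyp2c12, at an unadjusted p under 0.05 (4.61%). The 4 P450s had day 14 arrays all above the day 3 arrays, as did 18.9% of features. Because Kyoto day 14 raised the mean by which the filter kept Cyp2c12, this gene adds no support to the day 14 counts or median.

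In Wistar rats 0 of 5 genes passed limma's adjusted threshold at day 3 or at day 14 against controls, or at day 14 against day 3, where 0% of features passed in each. At an unadjusted p under 0.05 the count was 1 at day 3 (10.5% of features) and 1 at day 14 (5.19%), Cyp2a1 in both, and 0 for day 14 against day 3 (4.45%). Cyp2a1 was also the gene whose fed arrays all lay above the controls, on the normalized scale, a separation shown by 14.5% of features at day 3 and 3.46% at day 14. The strain by time comparison also called 0 of 5 (0% of features), with Cyp2a1 the 1 gene at an unadjusted p under 0.05 (5.19%). In the fed strains all 5 genes had an unadjusted p under 0.05, against 14.4% of features, with Cyp2c12 higher in Kyoto and the other 4 lower. Cyp2c12 was kept near the limit of the filter with Kyoto day 14 raising its mean, so it adds no support to this count. The median of the 5 differences was -1.10, against 0.04 over all features. Comparisons that share arrays, such as those using Kyoto day 14, are not independent of one another.

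Other genes of the growth hormone system were read from lists of known members. Of 9 growth hormone signalling genes on the array 7 were tested, and 1 of 7 passed between the fed strains, where 1.26% of features were called higher. This was Igfals, which encodes the acid-labile subunit that carries insulin-like growth factor in blood and is induced by growth hormone. Fed Kyoto livers had Igfals signals of 2538, 3468, 2996 and 2660, against 1386, 1326, 1458, 1594 and 1996 in fed Wistar livers, with no overlap. Igfals was 1.87-fold higher in Kyoto (log2 difference 0.90 ± 0.20, limma adjusted p = 0.0248), a call lost with any 1 of 5 arrays left out (highest adjusted p 0.114) and within lot batch 1 (adjusted p = 0.0884). The Wistar controls, at 2863, 3929 and 2131, spanned the fed Kyoto values only through the 3929 of control 2, the array that stood apart from its label. Controls 1 and 3 did not reach the fed Kyoto values of 2996 and 3468. Without control 2 the Wistar differences that follow were smaller, -0.61 at day 3 and -0.50 at day 14. Igfals in fed Wistar livers minus controls gave -0.81 ± 0.27 at day 3 (adjusted p = 0.300) and -0.70 ± 0.24 at day 14 (adjusted p = 0.895), so the difference called was against fed Wistar livers, and Kyoto rats without orotic acid were not analysed here.

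Ghr, the growth hormone receptor, had signals of 1876 and 1850 in Wistar livers at day 3, against 6729, 9532 and 5604 in Wistar controls. The difference of -1.60 ± 0.43 missed the threshold (limma adjusted p = 0.241). It passed with only the groups compared (adjusted p = 0.0373), with array weights (0.0367) and without Wistar day 14 replicate 3 (0.0166). Without Wistar control 2, the array at 9532 that stood apart from its label, the difference was -1.46. At Wistar day 14 the Ghr signals were 2567, 1596 and 8545, and 1 of the 3 arrays, replicate 3, lay within the control range (difference -1.08, adjusted p = 0.895). Without that array the difference was -1.68 (adjusted p = 0.00893), and with lot batch 1 arrays alone, which also leave it out, -1.79 (adjusted p = 0.0256). Leaving out Wistar day 14 replicate 2 gave -0.64.

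The male-predominant list had 7 tested genes of 8 on the array, and the female-predominant list 6 of 6, with 0 called in any of the 8 comparisons. Between the fed strains the male-predominant list had 2 genes at an unadjusted p under 0.05, both lower in Kyoto, and the female-predominant list had 0, where 14.4% of all features had one. Those were Cyp3a2, a steroid hydroxylase, at -0.83 ± 0.33 (adjusted p = 0.223) and Hsd3b5, a ketosteroid reductase, at -0.54 ± 0.23 (adjusted p = 0.292). Cyp3a2 passed with only the groups compared (adjusted p = 0.0138) and with array weights (0.0331). The medians were -0.02 for the male-predominant list and 0.15 for the female-predominant list, against 0.04 over all features. The female-predominant list did not hold Cyp2a1, Cyp2c12 or Cyp3a9, a P450 also known as female-predominant. Its count of 0 between the fed strains and its median therefore leave these genes out. Cyp3a9 was higher in fed Kyoto livers by 2.07 ± 0.56 (limma unadjusted p = 0.00243, adjusted p = 0.0609). Cyp2c12 was also higher, by 1.26 ± 0.34, and Cyp2a1 was lower (-0.56 ± 0.17). Cyp2c11, the best known male-specific P450, had signals of 7323 to 21401 over the 14 arrays. Its fed Kyoto minus fed Wistar difference was 0.01 ± 0.13 (limma adjusted p = 0.976), and that of Cyp2c13 was -0.02 ± 0.13 (adjusted p = 0.968).

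Transcription factors that act on these genes gave no call among 4 tested of 6 on the array. Between Kyoto days 14 and 1, 1 of the 4 was higher and 3 were lower, with a median of -0.43. Cebpb, which encodes a C/EBP factor, had the smallest p, with 549.8 and 706 at day 14, against 1686 and 775 at day 1 (difference -0.95 ± 0.33, adjusted p = 0.354). That difference was -1.50 when Kyoto day 1 replicate 2 was left out (adjusted p = 0.00942) and -0.40 when replicate 1 was. In Kyoto livers Onecut1, which encodes HNF6, had 765 and 577 at day 14, against 372 and 245 at day 1 (difference 1.12 ± 0.50, adjusted p = 0.462). In Wistar livers it had 477 and 666 at day 3, against 174, 616 and 321 in controls (difference 0.84 ± 0.46, adjusted p = 0.552). At Wistar day 14 Onecut1 had lower signals, 173, 134 and 295. The difference was -1.60 ± 0.46 from Wistar day 3 (limma adjusted p = 0.994) and -0.76 ± 0.41 from controls (adjusted p = 0.990). Its strain by time difference was 2.63 ± 0.68 (limma adjusted p = 0.834). Hnf4a, which encodes HNF4, gave -0.37 ± 0.41 in Kyoto day 14 minus day 1 (adjusted p = 0.773). A link of either factor to Cyp2c12 was not tested. Foxa2, which encodes a forkhead factor of liver and is in the female-predominant list, had 373 and 359 at day 14, against 133 and 125 at day 1 (difference 1.49 ± 0.47, adjusted p = 0.271). The Kyoto day 14 and day 1 arrays did not overlap for Cebpb, Onecut1 and Foxa2, and none of them passed the test with all arrays. Of all features, 19.1% were higher and 18.9% lower at day 14 without overlap.

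Among 23 tested of 26 other P450 genes on the array, 0 passed in any comparison by limma. Between the fed strains the smallest p was that of Cyp3a9, a hydroxylase known as female-predominant in rat liver, with signals of 799.8, 921, 1948 and 2765 in Kyoto livers, against 268, 243, 893, 623 and 184 in Wistar livers. The groups overlapped, and the difference of 2.07 ± 0.56 missed the threshold (adjusted p = 0.0609). It passed with a block for arrays with blank rows (adjusted p = 0.00678), with only the groups compared (0.0138) and with array weights (0.0202), and was 1.47 with the lot batch as a block (0.192). Between Kyoto days 14 and 1, Cyp3a23-3a1 gave 0.93 ± 0.29 (adjusted p = 0.252), 1.42 when Kyoto day 1 replicate 2 was left out (adjusted p = 0.00942) and 0.46 when replicate 1 was. Of the other carbonic anhydrases, Car2 and Car5a were tested and 0 passed. Car5a, the mitochondrial enzyme, had 930.3 and 682 at Kyoto day 14, against 411 and 346 at day 1 (difference 1.06 ± 0.28, adjusted p = 0.179), where Car3 differed the other way.

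**Figure D3:**
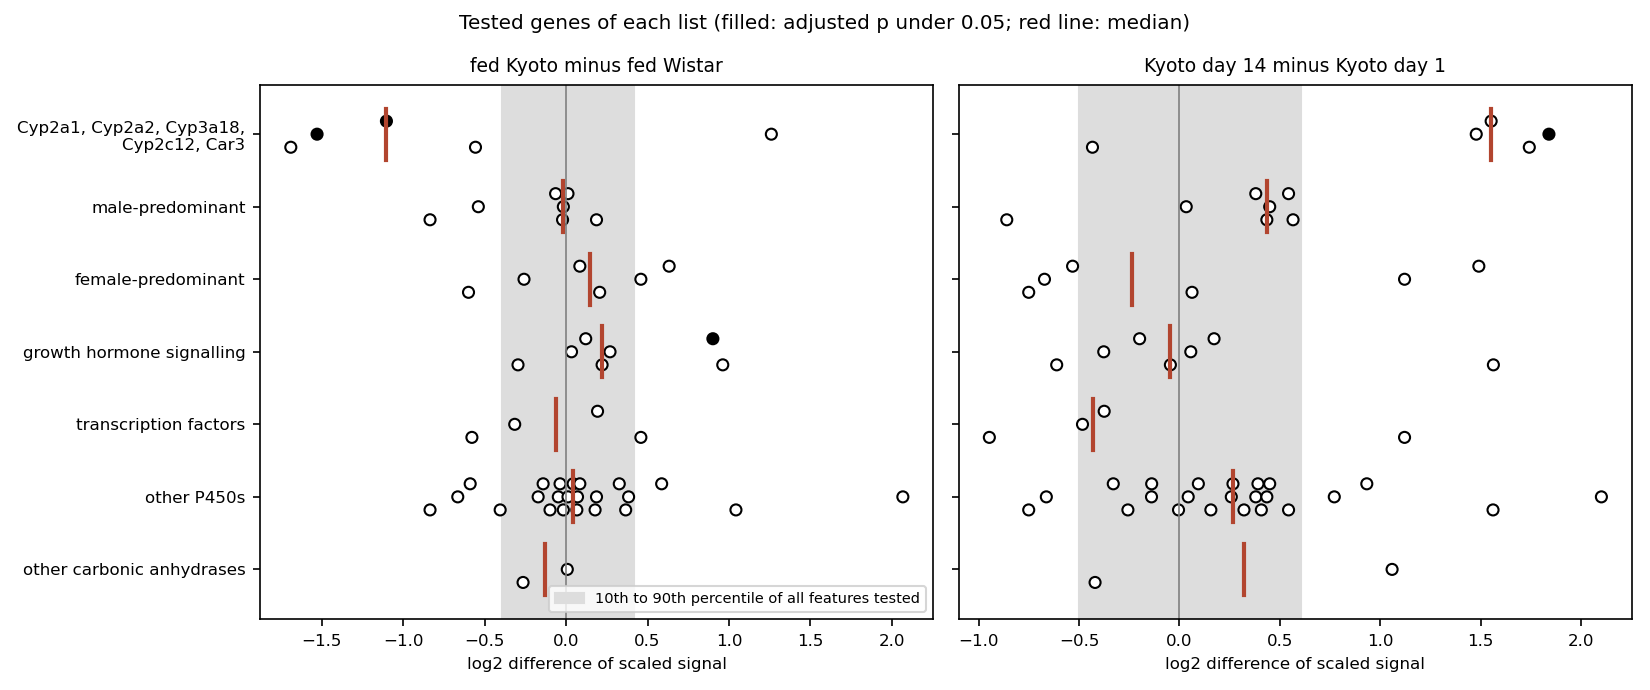
Log2 differences of the genes of each list beside the 5 genes, in fed Kyoto minus fed Wistar livers and in Kyoto day 14 minus day 1. Red lines are medians and the grey band marks the central range of all features, without the extremes on either side. The band is of single features and is no test of a list. The 5 genes have medians of -1.10 and 1.55, and the male-predominant list has medians of -0.02 and 0.44.

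The genes whose log2 signals were most like each member over the 14 arrays were found by Pearson r among 1501 other named features. The arrays share strain and day, so r describes these arrays and was given no test. For Cyp2a2 they were Akr1d1, a bile acid and steroid reductase (r = 0.959), Aldh1a1, a retinaldehyde dehydrogenase (0.947), and Cyp3a18 (0.925). For Cyp3a18 they were Aldh1a1 (0.936), Cyp2a2 (0.925) and the glutathione transferase Gsta3 (0.900). For Cyp2a1 they were Gsta3 (0.891), the aldehyde reductase Akr7a3 (0.857) and Cyp2a2 (0.827). Cyp2c12 was most like Cyp3a9 (0.850), Prdx6, a peroxiredoxin (0.745), and Cdh17, a cadherin (0.726). Car3 was most like Gckr, the glucokinase regulatory protein (0.885), Auh, an RNA-binding hydratase (0.835), and Pmpca, a mitochondrial processing peptidase (0.795). Within strains several pairs were weaker. Car3 with Pmpca had r = -0.68 over 6 Kyoto arrays and 0.885 over 8 Wistar arrays, and Car3 with Auh had 0.124 over the Kyoto arrays. Over the 8 Wistar arrays r was 0.0151 for Cyp2c12 with Cdh17, 0.523 for Cyp2c12 with Cyp3a9 and 0.460 for Cyp2a1 with Akr7a3. Cyp2a2 with Aldh1a1 had 0.911 over the Kyoto and 0.962 over the Wistar arrays.

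**Figure D4:**
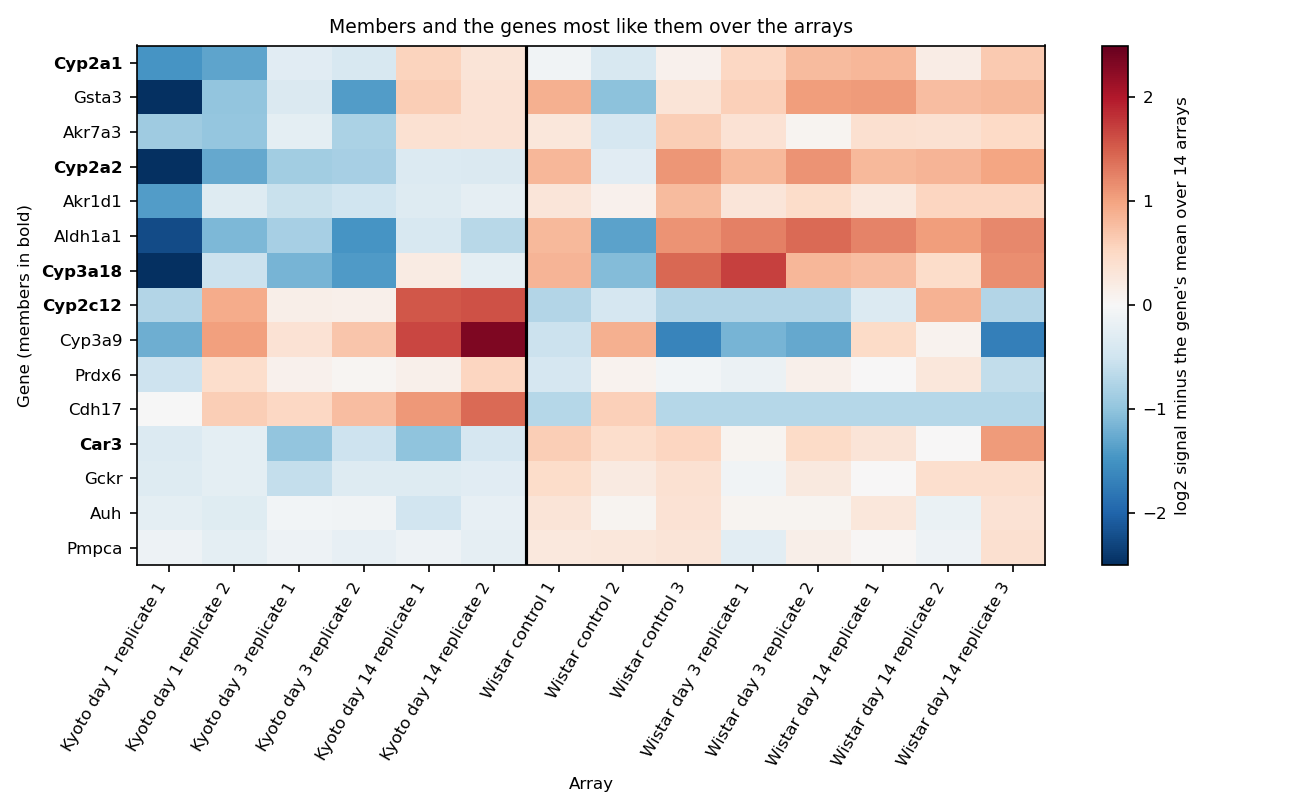
Log2 signal of the 5 genes and the genes most like them on each of the 14 arrays, minus the mean of each gene. Cyp2a2, Akr1d1 and Aldh1a1 are below their means on the 6 Kyoto arrays, Wistar control 2 is below the mean for Cyp2a2, Cyp3a18 and Aldh1a1, and Cyp2c12 is highest on the Kyoto day 14 arrays.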

How the data were processed

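Liver RNA of 14 samples was hybridised to 1-colour Affymetrix arrays. The authors deposited a table of linear intensity values, 1 per probe set and array, which the submitters' processing notes credit to MAS5. The version and scaling target are named in none of the sources used here. Of 4502 rows, 375 lacked a value on at least 1 of 3 arrays, which left 4127. Control probe sets, 24 of the 4502 rows, were scaled with the rest and then left out. A common deposited median (233) on 11 arrays shows scaling by the authors.

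The deposited signals were turned to log2 values, quantile normalized and floored at the 25th percentile. A gene was represented by its probe set with the highest mean, and the upper 60% of 3181 features (1909, of which 1502 carry 1 symbol) entered a limma 3.58.1 fit (R 4.3.3; lmFit, eBayes with trend) of 6 group means (8 residual degrees of freedom left). The shared Cyp2a1 and Cyp2a2 probe set was a feature of its own. Fed Kyoto minus fed Wistar is the mean of the strain differences at days 3 and 14, and strain by time is the difference between them. Adjusted p-values are limma's with Benjamini-Hochberg adjustment over the 1909 features, threshold 0.05. Values after ± are standard errors unless called SD. The number of arrays limits the precision. The fit was tested on simulated data.

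The 5 genes and all lists were chosen with earlier results of these data known. Named were the 5 genes, from each list up to 4 members past the threshold or 2 with the smallest p, and the 3 genes most like each member. Ces2e and Mst1 were named after their values were seen. Other scalings, floors, filters, blocks and array sets were tried. Gene positions and promoters are from RefSeq (GRCr8), and the array's gene names are from its platform annotation (3700 probe sets with 1 symbol, 229 with several and 573 with none).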

Additional observations from a re-analysis of the deposited data

How the results depend on the processing

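The limits below concern the 5 genes, and those of other genes stand beside their values. The fed strain differences of Cyp2a2 and Car3 and the Kyoto day 14 minus day 1 difference of Cyp2a1 kept their direction under every alternative run, but not always their call. The number of the 5 genes past the threshold in fed Kyoto minus fed Wistar, 2 in the main analysis, was 0 with no filter on low signals, with the lot batch as a block or with lot batch 1 arrays only, 4 with only the groups compared or with only arrays that have no blank rows, and 5 with array weights. In Kyoto day 14 minus day 1, 1 in the main analysis, it was 0 with only the groups compared, with array weights, with lot batch 1 arrays only and with only arrays that have no blank rows. With any 1 array left out these counts ran from 0 to 4 and from 0 to 3, and in Kyoto day 3 minus day 1 from 0 to 2. The lot batch 1 and no blank row sets, and the signals as the authors scaled them in the Cyp2a ratio, were chosen after seeing the data. The cause of these moves was not tested.

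Some differences, none of them called, turned sign. Wistar day 14 minus day 3 was 0.068 for Cyp2a1 and 0.16 for Cyp2a2 on the authors' scaling, and 0.080 and 0.18 with median scaling. For Cyp2a2 it was also 0.0028 with the lot batch block and 0.035 with lot batch 1 arrays only. In Kyoto day 3 minus day 1, Cyp2c12 was -0.39 with a block for arrays with blank rows, and Cyp2c12 and Cyp3a18 were -0.78 and -0.75 without such arrays, where Car3 was -0.12 in Wistar day 14 minus day 3 and 0.15 in strain by time.

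With 1 array left out, Kyoto day 3 minus day 1 ran from -0.78 to 0.063 for Cyp2c12 and from -0.75 to 1.67 for Cyp3a18, both lowest without Kyoto day 1 replicate 1. Wistar day 14 minus control ran from -0.084 to 0.62 for Cyp2a2, from -0.34 to 0.91 for Cyp3a18 and from -0.37 to 0.16 for Car3, and Wistar day 3 minus control from -0.014 to 0.69 for Cyp2a2. Wistar day 14 minus day 3 ran from -0.24 to 0.089 for Cyp2a1, from -0.23 to 0.088 for Cyp2a2 and from -0.12 to 0.42 for Car3. Car3 ran from -0.26 to 0.32 in Kyoto day 14 minus day 3 and from -0.44 to 0.15 in strain by time. No paired analysis was possible because the labels carry no replicate numbers. Where Cyp2c12 lies at the floor its level was not measured above background.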

Other observations

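Aldh1a1 and Cdh17, picked for their likeness to Cyp2a2, Cyp3a18 and Cyp2c12 over the same 14 arrays, are given as values with no test of the strains. Aldh1a1, which oxidises retinaldehyde, had signals of 709.8, 415, 932 and 733 in Kyoto livers at days 3 and 14, against 2655, 2801, 2996, 2414 and 2972 in fed Wistar livers. Cdh17, a cadherin of liver and intestine, had signals of 276, 322, 408 and 500.1 in the same Kyoto livers, against 3.31 to 25.5 in fed Wistar livers, all at the floor. Cdh17 was at the floor on all Wistar arrays but control 2, so it passed the filter on low signals through the other arrays. On Wistar control 2, Aldh1a1 was 468 and Cdh17 was 280.3, against 2303 and 2752, and 7.02 and 1.59, on Wistar controls 1 and 3. Both genes had signals within the Kyoto range on Wistar control 2.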
